A study of Mus musculus with 14 samples.

Results

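The troponin genes of the mouse, Tnni1, Tnni2, Tnni3, Tnnt1, Tnnt2, Tnnt3, Tnnc1 and Tnnc2, were described in hind limb skeletal muscle with and without Myf6. They were taken by gene symbol, 8 of the 49585 genes in the deposited tables, and each symbol occurred once in both tables. RNA-seq had been carried out on 12 libraries, 3 in each of 4 groups: uninjured wild-type (WT), uninjured Myf6 knockout (KO), injured WT and injured KO. Values are RPM, reads assigned to a gene per 1000000 reads assigned to all genes of a library. Myf6 belongs to the myogenic regulatory factors and is made in mature muscle fibres. Each library carries an animal number, with L for uninjured and R for injured muscle, so each of the 6 animals gave 1 library of either state. The strain, the age, the knockout allele, the muscle taken, and how and when the muscle was injured are not given in the sources used here. WT and KO animals carry different numbers, so genotype and any litter or batch cannot be told apart. Sites bound by Myf6 were taken from 1 list of ChIP-seq peaks, made with a Flag antibody in primary myotubes grown from adult satellite cells, from 1 ChIP library and 1 control.

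Troponin sits on the thin filament of striated muscle and makes contraction depend on calcium. It has a calcium-binding subunit (troponin C), an inhibitory subunit that holds back the binding of myosin to actin (troponin I), and a subunit that anchors the complex to tropomyosin (troponin T). Slow-twitch fibres use Tnni1, Tnnt1 and Tnnc1, fast-twitch fibres use Tnni2, Tnnt3 and Tnnc2, and the heart uses Tnni3 and Tnnt2 together with Tnnc1. Tnnt2 is also made in embryonic and regenerating skeletal muscle, so its label as a cardiac gene is not exclusive.

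The gene starts are shown first because Myf6 peaks lie within 1 kb of several of them. Sequences are from RefSeq on GRCm38.p6, which listed a start for 6 of the 8 genes, and capitals mark every E-box, the 6 letters CANNTG that myogenic factors are known to bind. CANNTG reads as CANNTG on the opposite strand too. It occurred in 66.2% of the 250-base windows before the 32851 listed starts in the mouse, and CAGCTG, 1 form of it, in 13%. The first 3 lines give the 250 bases before the start of each slow gene: Tnni1 at chr1:135799171-135799420 (plus strand, first of 2 listed starts), Tnnt1 at chr7:4515976-4516225 (minus strand) and Tnnc1 at chr14:31208062-31208311 (plus strand). The last 2 lines give the stretch of a Myf6 peak that lies within the 250 bases before the start: for Tnnc2 chr2:164779866-164779984 (minus strand) and for Tnnt2 chr1:135836084-135836279 (plus strand).
Tnni1: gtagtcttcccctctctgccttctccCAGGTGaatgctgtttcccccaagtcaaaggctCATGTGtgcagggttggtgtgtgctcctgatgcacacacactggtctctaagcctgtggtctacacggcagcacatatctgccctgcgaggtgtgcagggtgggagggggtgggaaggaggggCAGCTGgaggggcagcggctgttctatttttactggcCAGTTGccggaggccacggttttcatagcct
Tnnt1: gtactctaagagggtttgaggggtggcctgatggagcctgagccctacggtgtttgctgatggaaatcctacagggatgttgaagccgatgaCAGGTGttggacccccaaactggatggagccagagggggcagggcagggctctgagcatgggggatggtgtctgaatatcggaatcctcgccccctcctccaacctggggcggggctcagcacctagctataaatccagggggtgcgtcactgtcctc
Tnnc1: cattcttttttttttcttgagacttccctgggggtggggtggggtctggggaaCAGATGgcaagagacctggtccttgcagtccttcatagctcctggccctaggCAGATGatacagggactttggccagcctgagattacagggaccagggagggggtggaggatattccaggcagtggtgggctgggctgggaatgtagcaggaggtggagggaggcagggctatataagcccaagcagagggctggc
Tnnc2: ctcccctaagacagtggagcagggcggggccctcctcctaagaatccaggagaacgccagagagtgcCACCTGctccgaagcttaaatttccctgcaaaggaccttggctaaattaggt
Tnnt2: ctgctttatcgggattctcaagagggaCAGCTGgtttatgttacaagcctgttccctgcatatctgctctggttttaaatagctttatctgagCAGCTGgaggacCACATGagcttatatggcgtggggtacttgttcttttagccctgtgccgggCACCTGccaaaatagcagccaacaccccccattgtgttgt

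The window before the first listed Tnni1 start held 4 E-boxes, 1 of them CAGCTG, a number reached by 3.84% of all such windows. The overlapping window before its second listed start held 2. The window before Tnnt1 held 1 and that before Tnnc1 held 2, both CAGATG. No Myf6 peak overlaps the windows shown for the slow genes. In the Tnnt2 peak stretch there were 4 E-boxes, 2 of them CAGCTG, and in the Tnnc2 stretch 1. A match describes letters, not a bound site.

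On GRCm38.p6 the slow genes lie at chr1:135783033-135810989 (Tnni1), chr7:4504569-4515975 (Tnnt1) and chr14:31208312-31211729 (Tnnc1). The fast genes lie at chr7:142441816-142444410 (Tnni2), chr7:142498771-142516213 (Tnnt3) and chr2:164777161-164779734 (Tnnc2), and the cardiac-type genes at chr7:4518305-4522718 (Tnni3) and chr1:135836315-135852268 (Tnnt2). Each troponin I gene thus has a troponin T gene nearby, though not always of its own fibre type: Tnni1 stands 25.3 kb from Tnnt2, Tnni2 54.4 kb from Tnnt3, and Tnni3 2329 bases from Tnnt1.

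Myf6 peaks were found between 10 kb before the gene start and the gene end for 7 of the 8 troponin genes, all but Tnni3. Over the 17274 protein-coding genes with a listed start, 21.1% had a peak in that window, and over the 9658 of them tested in the fit of all 12 RNA libraries, 30.2% did. For Tnni2 and Tnnt3 no start was listed, and both readings of their direction gave a peak. Within 1 kb of a listed start, 4 of 6 troponin genes had a peak (Tnni1, Tnnt1, Tnnc2 and Tnnt2), against 2.92% of the protein-coding genes and 4.39% of those tested. There is 1 ChIP library, so these counts have no replicate check. Fold enrichment over local background, as the authors' peak caller gave it, had a median of 7.68 over the 12898 peaks, and the peaks named below for single genes lay between 3.76 and 11.6.

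Among the slow genes, Tnnt1 had a peak centred 580 bases before its start (chr7:4516464-4516646, fold 7.40), in the gap of 2329 bases that separates it from the end of Tnni3. Weaker peaks lay inside Tnnt1 (chr7:4510199-4510340, fold 4.67, and chr7:4514483-4514646, fold 3.76). Tnni1 had a peak centred 724 bases before its first listed start (chr1:135798606-135798782, fold 5.02) and another 4322 bases before it (chr1:135795007-135795178, fold 6.76). Both lie inside the annotated gene, which begins farther upstream than that start, and another peak lay before the whole gene (chr1:135779334-135779466, fold 5.48). Tnnc1 had no peak before its start but one inside the gene, 1196 bases after it (chr14:31209410-31209585, fold 7.29), and one past its end (chr14:31212547-31212732, fold 9.17). Whether a peak falls in an exon or an intron was not analysed here.

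Among the fast genes, Tnnc2 had a peak centred 182 bases before its start (chr2:164779866-164780039, fold 5.51) and another 2341 bases before it (chr2:164782011-164782156, fold 8.03). Tnni2 had 1 peak inside the gene (chr7:142442148-142442359, fold 6.63). Tnnt3 had 1 inside the gene (chr7:142500135-142500328, fold 4.48) and 1 outside it, at its lower-coordinate side (chr7:142496293-142496458, fold 4.60). The strongest peak near any troponin gene belonged to the cardiac-type gene Tnnt2. It was centred 1987 bases before the start (chr1:135834224-135834450, fold 11.6) and ranked 2034 of 12898 by fold. A second Tnnt2 peak was centred 225 bases before the start (chr1:135836026-135836279, fold 8.69).

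**Figure D1:**
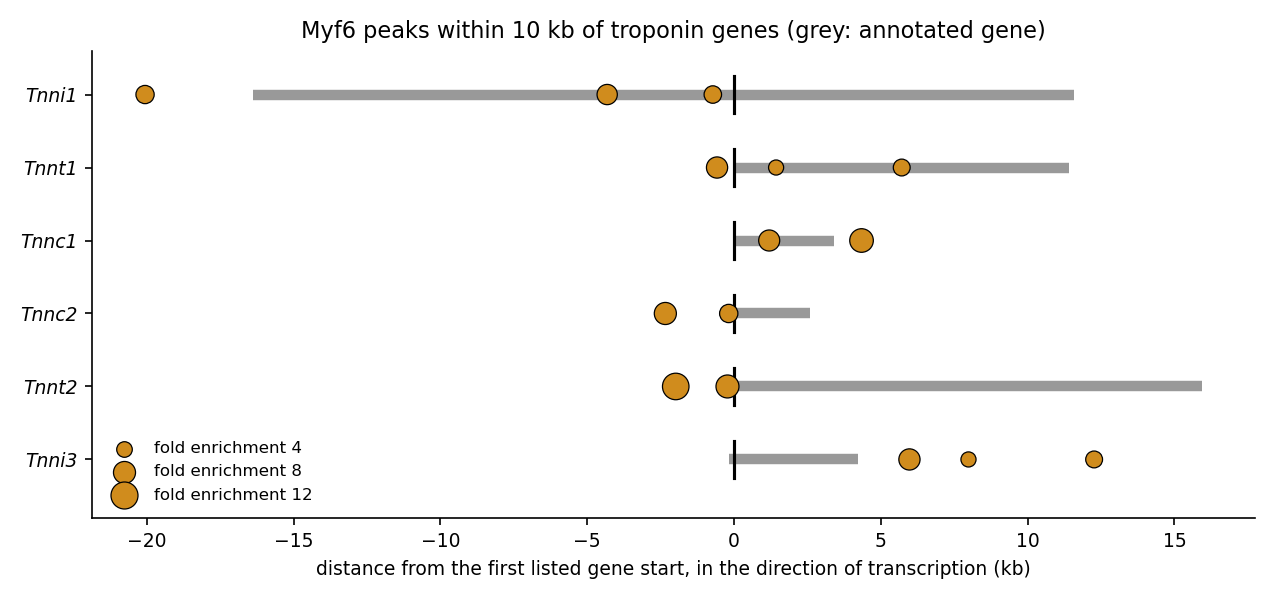
Position of Myf6 peak summits (circles, area by fold enrichment) relative to the first listed start (vertical tick, at 0) of the 6 troponin genes with a listed start, in kb along the direction of transcription, with the annotated gene in grey. Tnni1, Tnnt1, Tnnc2 and Tnnt2 have a peak within 1 kb of the tick, while the peaks drawn for Tnni3 lie past its end and are those of Tnnt1.

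In the RNA, the targeted gene was checked first. Myf6 was listed at 46.2, 25 and 111 RPM in uninjured WT libraries and at 1.86, 3.46 and 2.27 in uninjured KO libraries. In injured muscle it was at 47.9, 121 and 72.5 RPM in WT and 3.32, 2.88 and 3.02 in KO. The groups did not overlap in either state, and Myf6 fell by 3.90 on the log2(RPM + 1) scale in uninjured muscle (SE 0.51, limma adjusted p = 0.0215) and fell by 4.22 in injured muscle (SE 0.33, adjusted p = 0.00697).

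Recovered depth ranged from 1880087 reads (uninjured WT replicate 2) to 49392472, so that 3 reads correspond to 0.0607 to 1.60 RPM. The 6 skeletal fibre markers summed to between 94700 and 152000 RPM in every library. KO animal 2 stood apart from the other KO animals in several measures that follow. Its libraries gave 15.3% and 23.2% of reads on mitochondrially encoded genes against 3.63% to 6.76% in the other KO libraries, and its injured library had Malat1, a nuclear-retained RNA, at 288 RPM against 73.4 to 106 in the other KO libraries. Schwann cell markers in that injured library summed to 1113 RPM, against 80.2 to 630 in the other 11 libraries. WT libraries lay between 8.35% and 22.3% and between 213 and 494 RPM on these measures. Their part in the results was not tested beyond the alternatives named. Replicates are animals within a genotype, and 3 animals against 3 cannot give an exact permutation p below 0.1.

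The slow subunits had higher mean levels in KO than in WT muscle in both states. Ratios of mean RPM, KO over WT, were 2.77 for Tnni1, 2.34 for Tnnt1 and 2.18 for Tnnc1 in uninjured muscle. In injured muscle they were 5.69, 4.86 and 4.32. Limma on log2(RPM + 1), with Benjamini-Hochberg adjustment over all genes, called none of the 8 troponin genes in either state, with 0.281% of all genes tested called in uninjured and 0.269% in injured muscle. By the authors' deposited q-values all 3 slow subunits passed 0.05 in both states.

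Tnnt1, the slow troponin T, was at 203, 218 and 264 RPM in the uninjured WT libraries and at 683, 354 and 567 in the uninjured KO libraries. Every uninjured KO library lay above every WT library, as in 6.2% of genes tested. In injured muscle it was at 130, 50.4 and 215 RPM in WT and 938, 355 and 628 in KO, again without overlap, as in 8.29% of genes tested. Its lowest KO value over both states, 354 RPM in animal 2, was above its highest WT value, 264 RPM. Of the 13337 genes tested, 1.57% had all 6 KO libraries above all 6 WT libraries. KO exceeded WT by 1.18 (SE 0.30) on the log2(RPM + 1) scale in uninjured muscle, with a limma adjusted p of 0.145. In injured muscle the difference was 2.39 (SE 0.57, limma adjusted p = 0.247). With 1 value per animal, the mean of its libraries, the difference was 1.79 (SE 0.37), and the limma adjusted p of 0.0648 was the lowest of any troponin gene.

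Tnnc1 encodes the troponin C shared by slow fibres and the heart. It was at 155, 152 and 195 RPM in the uninjured WT libraries and at 488, 262 and 346 in the uninjured KO libraries, without overlap. Injured muscle gave 108, 35.8 and 128 RPM in WT and 637, 149 and 389 in KO, also without overlap. Of all genes tested, 6.2% had every KO library above every WT library in uninjured and 8.29% in injured muscle. KO animal 2 was the lowest KO animal in both states, and its injured library, at 149 RPM, fell below all 3 uninjured WT libraries. The KO minus WT difference was 1.08 (SE 0.29) in uninjured muscle (limma adjusted p = 0.154) and 2.06 (SE 0.65) in injured muscle (limma adjusted p = 0.361).

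Tnni1, the slow troponin I, was at 62.4, 60.6 and 99.0 RPM in uninjured WT and at 257, 91.3 and 266 in uninjured KO muscle. KO animal 2, at 91.3 RPM, lay within the WT range, so these groups overlapped. Injured libraries gave 44.3, 20.6 and 94.3 RPM in WT and 520, 85.9 and 301 in KO, and again animal 2 alone lay below the highest WT library. The differences were 1.34 (SE 0.43) in uninjured muscle (limma adjusted p = 0.211) and 2.40 (SE 0.76) in injured muscle (limma adjusted p = 0.362). Exact permutation tests of single genes gave p = 0.2 for Tnni1 and the smallest possible, 0.1, for Tnnt1 and Tnnc1 in each state.

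**Figure D2:**
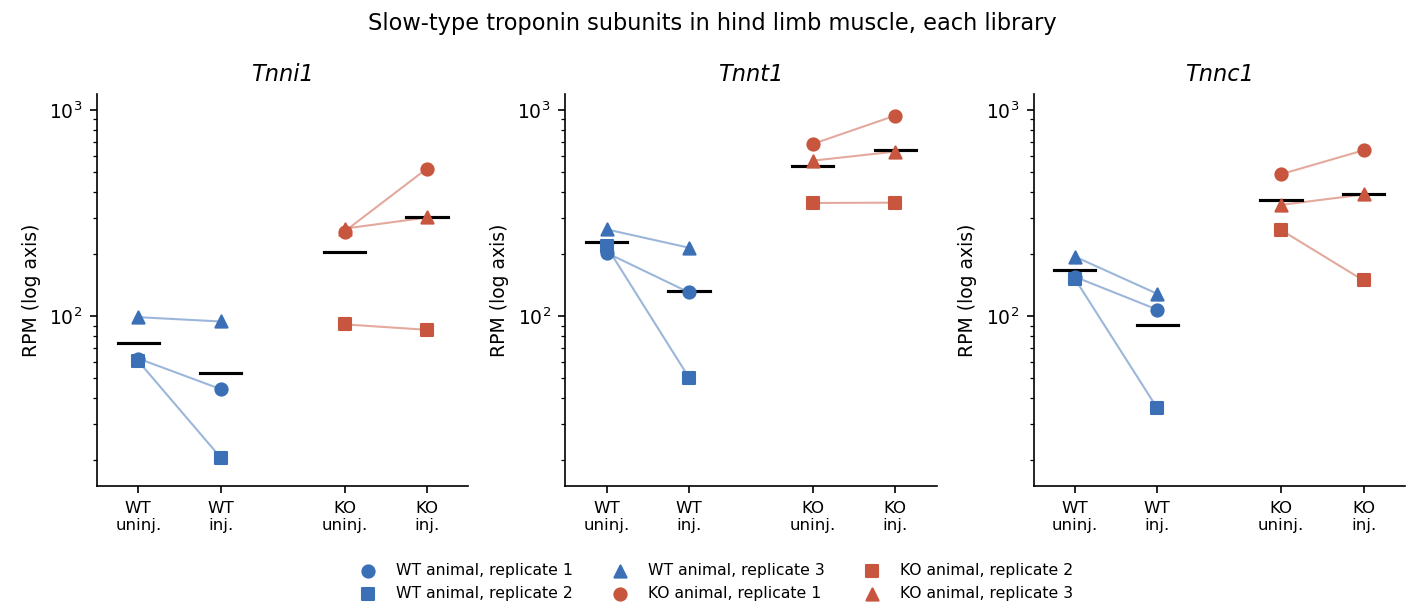
RPM (log axis) of Tnni1, Tnnt1 and Tnnc1 in each of the 12 libraries, WT blue and KO red, with a line joining the uninjured and injured library of an animal and a black bar at the group mean. Tnnt1 is at 354 RPM or above in all KO libraries and at 264 RPM or below in all WT libraries, and KO animal 2 (red squares) is the lowest KO animal in every panel.

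With animal means, Tnnt1 and Tnnc1 had every KO animal above every WT animal, as had 6.79% of all genes tested, and limma called 0 of 8 troponin genes against 1.16% of all genes. At an unadjusted limma p under 0.05, the 3 slow subunits and no other troponin gene were higher in KO in each of the 3 comparisons, where 3.53% (uninjured), 5.06% (injured) and 4.53% (animal means) of all genes were. In either direction 14.2%, 10.3% and 16.3% of all genes had such a p. The median difference over all genes tested in uninjured muscle was -0.18 and moved to 0.04 under upper quartile scaling. Relative to that median, the uninjured differences of Tnni1, Tnnt1 and Tnnc1 were 1.52, 1.36 and 1.26.

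The call on the slow subunits turned with the method and with KO animal 2. In uninjured muscle the authors' deposited table gave q = 0.00150 for Tnni1, 0.000468 for Tnnt1 and 0.00300 for Tnnc1. Of the genes with a q-value there, 0.731% were higher in KO at a threshold of 0.05, and in injured muscle 0.492% were. The authors' deposited q-values in injured muscle were 0.0268, 0.00482 and 0.0442. DESeq2 on recovered reads also called all 3 in both states, with 5.33% of all genes called in uninjured and 3.39% in injured muscle. The quasi-likelihood test of edgeR called none of the 3 (adjusted p from 0.0642 to 0.0708 in uninjured and 0.274 to 0.359 in injured muscle) and 0.441% and 0.261% of all genes. Without KO animal 2, limma called Tnni1 in uninjured muscle (1.84, adjusted p = 0.0473), where 0.261% of all genes were called, and all 3 in injured muscle (2.63 to 3.13, adjusted p = 0.0143 to 0.0179) and with animal means (adjusted p = 0.000934 to 0.00174). In those fits, however, limma called 19% of all genes in injured muscle and 19.2% with animal means. It then left Tnnt1 at an adjusted p of 0.0542 and Tnnc1 at 0.0767 in uninjured muscle. With the Malat1 level as a covariate over all 12 libraries, the uninjured differences of Tnni1 and Tnnc1 turned to -0.39 and -0.34, and that of Tnnt1 dropped to 0.06. The injured differences dropped to 0.64 for Tnni1, 1.25 for Tnnt1 and 0.62 for Tnnc1 (limma adjusted p of 1 for each). Malat1 itself was lower in KO by 1.39 (SE 0.25, limma adjusted p = 0.0580) in uninjured muscle. It was at 73.4 to 288 RPM in KO libraries, the highest being injured replicate 2, and at 213 to 494 in WT. This covariate thus largely follows genotype, and the fit cannot tell them apart. With the mitochondrial share as a covariate the slow subunit differences were 0.47 for Tnni1, 0.84 for Tnnt1 and 0.55 for Tnnc1 in uninjured muscle, none called, where 5.34% of all genes were. In injured muscle the same covariate left differences up to 2.35 and limma called all 3 (adjusted p = 0.0131 to 0.0417), as it did 1.13% of all genes. Under upper quartile, TMM and non-mitochondrial scaling all 3 stayed higher in KO in both states.

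Adipocyte markers also had higher sums in KO, with some overlap. All 5 (Adipoq, Plin1, Cfd, Lep, Cidec) were found and none was at 0 in every library. Their sum ranged over 361 to 569 RPM in uninjured WT, 542 to 1193 in uninjured KO, 56.0 to 382 in injured WT and 271 to 1169 in injured KO. The lowest sum, in injured WT replicate 2, fell in the library with the lowest values of all 3 slow subunits. The skeletal fibre marker sum was also higher in uninjured KO (130900 to 152000 RPM) than in uninjured WT (94700 to 111400 RPM). In injured muscle it overlapped, at 96250 to 128000 RPM in KO and 100300 to 123000 in WT. Macrophage marker sums (5 of 5 found) were lower in KO without overlap, at 50.9 to 80.0 RPM against 83.5 to 156 in uninjured and 88.4 to 92.6 against 105 to 135 in injured muscle. Satellite cell marker sums (5 of 5 found) were also lower, at 18.8 to 35.4 RPM in KO against 39.4 to 47.8 in WT in uninjured and 30.9 to 39.7 against 43.4 to 51.6 in injured muscle. Smooth muscle marker sums (4 of 4 found) were 126 to 297 RPM in KO and 69.3 to 161 in WT in uninjured muscle, and 102 to 221 against 58.5 to 100.3 in injured muscle. Among single genes tested, 15.5% had every KO library below every WT library in uninjured and 8.63% in injured muscle. Every KO library lay above every WT library for 6.2% and 8.29%. The part of these marker sums in the slow subunit values was not tested. In whole muscle, more slow fibres and more slow troponin RNA per fibre cannot be told apart.

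The slow subunits varied together over the libraries. Over the 12 libraries, from 6 animals that share the genotype difference, Pearson's r of log2(RPM + 1) was 0.98 between Tnnt1 and Tnnc1, 0.96 between Tnni1 and Tnnt1 and 0.95 between Tnni1 and Tnnc1. Reads of Tnnc1 per 100 reads of Tnnt1 stayed between 42.0 and 82.5, while Tnnt1 itself ranged from 50.4 to 938 RPM. Reads of Tnni1 ranged over 24.2 to 55.4 per 100 reads of Tnnt1 and 34.9 to 81.6 per 100 reads of Tnnc1. Among 13329 other genes tested, the most alike in pattern to Tnnt1 were Myl2, the slow regulatory light chain (r = 0.985), Myh7, the slow myosin heavy chain (0.966), and Aoc3 (0.964). For Tnnc1 they were Myl2 (0.973), Tpm3, the slow tropomyosin (0.959), and Aoc3 (0.958). Tnni1 was most like Tpm3 (0.988), Scd1 (0.966) and Dgat2 (0.956), of which Scd1 and Dgat2 are enzymes of fat synthesis. These r values describe the 12 libraries and carry no test.

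Reads of a slow subunit against its fast counterpart in the same library do not depend on library scaling. Tnnt1 reads per 1000 Tnnt3 reads ranged over 7.00 to 7.54 in uninjured WT and 8.67 to 15.1 in uninjured KO libraries, without overlap. In injured muscle they ranged over 1.15 to 6.65 in WT and 13.3 to 24.5 in KO, also without overlap. Tnni1 reads per 1000 Tnni2 reads ranged over 2.0 to 4.84 (uninjured WT), 1.95 to 15.4 (uninjured KO), 0.793 to 4.29 (injured WT) and 3.15 to 28.2 (injured KO), and overlapped in both states. In every library, KO included, Tnni2 reads outnumbered Tnni1 reads and Tnnt3 reads outnumbered Tnnt1 reads. The troponin C pair was the other way round, with more Tnnc1 than Tnnc2 reads in every library. That order rests on low Tnnc2 values, 3.60 to 28.5 RPM against 17248 or more for Tnni2 and Tnnt3. How reads with several matches were counted is not given in the sources used here. The ratios compare reads, not molecules, since transcript lengths were not used.

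The fast subunits Tnni2 and Tnnt3 were at 17248 to 48241 RPM in all libraries, and no genotype difference of either passed limma. Tnni2, the fast troponin I, was at 27652, 30260 and 20432 RPM in uninjured WT and 31716, 46720 and 17248 in uninjured KO libraries. KO held both the highest and the lowest library, so the groups overlapped. In injured muscle the values were 28863, 26007 and 21991 RPM in WT and 18437, 27273 and 19633 in KO, overlapping too. The KO minus WT difference was 0.19 (SE 0.42, limma adjusted p = 0.874) in uninjured and -0.25 (SE 0.31, limma adjusted p = 0.827) in injured muscle.

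Tnnt3, the fast troponin T, was at 29014, 29393 and 34955 RPM in uninjured WT and 48241, 40780 and 37565 in uninjured KO libraries. All 3 KO libraries were above all 3 WT libraries, as in 6.2% of genes tested, but the difference of 0.44 (SE 0.32) did not pass (limma adjusted p = 0.574). In injured muscle it was at 31752, 43936 and 32269 RPM in WT and 38263, 26797 and 38559 in KO, with overlap and a difference of -0.06 (SE 0.34, limma adjusted p = 0.971).

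Tnnc2, the fast troponin C, was listed far below its partners. It was at 4.47, 5.32 and 7.61 RPM in uninjured WT and 19.8, 4.57 and 28.5 in uninjured KO libraries. KO animals 1 and 3 were above every WT library and animal 2 was within the WT range. Injured libraries gave 9.30, 19.1 and 10.9 RPM in WT and 21.9, 3.60 and 23.6 in KO, with animal 2 again the lowest. The difference was 1.17 (SE 0.58, limma adjusted p = 0.399) in uninjured and 0.02 (SE 0.66, limma adjusted p = 0.996) in injured muscle. DESeq2 called the uninjured difference (1.68, adjusted p = 0.0318). Without KO animal 2, limma on animal means called it as well (1.35, adjusted p = 0.00403), in the fit that called 19.2% of all genes.

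Per kb of annotated gene, Tnnc2 (2574 bases) stood at 1.40 to 11.1 RPM and Tnni2 (2595 bases, introns included in both) at 6647 to 18004. How reads with several matches were counted is not given in the sources used here, and the cause was not tested. The genes most like Tnnc2 in pattern were Yif1b (r = 0.978), Gapdh (0.977) and Tuba8 (0.977). Tnni2 was most like Pgam2 (0.963), the muscle phosphoglycerate mutase, Ndufb7 (0.959) and Fam213b (0.956). For Tnnt3 they were Gm12416 (0.927), Rtn2 (0.921) and Nudt9 (0.916).

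The cardiac-type subunits were low, with Tnnt2 at 1 RPM or more in 11 of 12 libraries and Tnni3 in 6 of 12. Tnnt2, cardiac troponin T, was at 3.31, 3.19 and 2.47 RPM in uninjured WT and 6.62, 0.630 and 5.94 in uninjured KO libraries. KO animal 2 was the lowest and the other 2 KO animals the highest, with 6 reads behind the lowest count, that of the shallow WT replicate 2. In injured muscle it was at 3.08, 3.03 and 3.67 RPM in WT and 5.70, 3.65 and 4.82 in KO. Animal 2 fell just below the highest WT library there. Differences were 0.15 (SE 0.58, limma adjusted p = 0.938) and 0.41 (SE 0.21, limma adjusted p = 0.558). Without KO animal 2, limma on animal means called Tnnt2 (0.71, adjusted p = 0.0499), in the fit that called 19.2% of all genes.

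Tnni3, cardiac troponin I, was at 1.87, 2.13 and 0.428 RPM in uninjured WT and 0.228, 2.68 and 0.187 in uninjured KO libraries. The injured values were 1.88, 0.711 and 1.22 RPM in WT and 0.455, 2.16 and 0.243 in KO. Its counts ran from 4 reads upward. KO animal 2 was the highest library in both states while the other KO animals were low. The differences, -0.42 (SE 0.55, limma adjusted p = 0.776) and -0.31 (SE 0.40, limma adjusted p = 0.831), did not pass. Most like it in pattern were Gnrh1 (r = 0.969), Smpd2 (0.944) and Gm29650 (0.937). For Tnnt2 they were Gtf3c5 (0.962), Gstm7 (0.958) and 2310009A05Rik (0.958).

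Defining markers of heart muscle were at or near 0. The atrial light chain Myl7 and the cardiac factor Nkx2-5 were listed at 0 in all 12, which allows levels up to the 3-read floor. Nppa stayed at or below 0.0750 RPM, and the 5 heart markers summed to at most 1.22 RPM in any library.

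**Figure D3:**
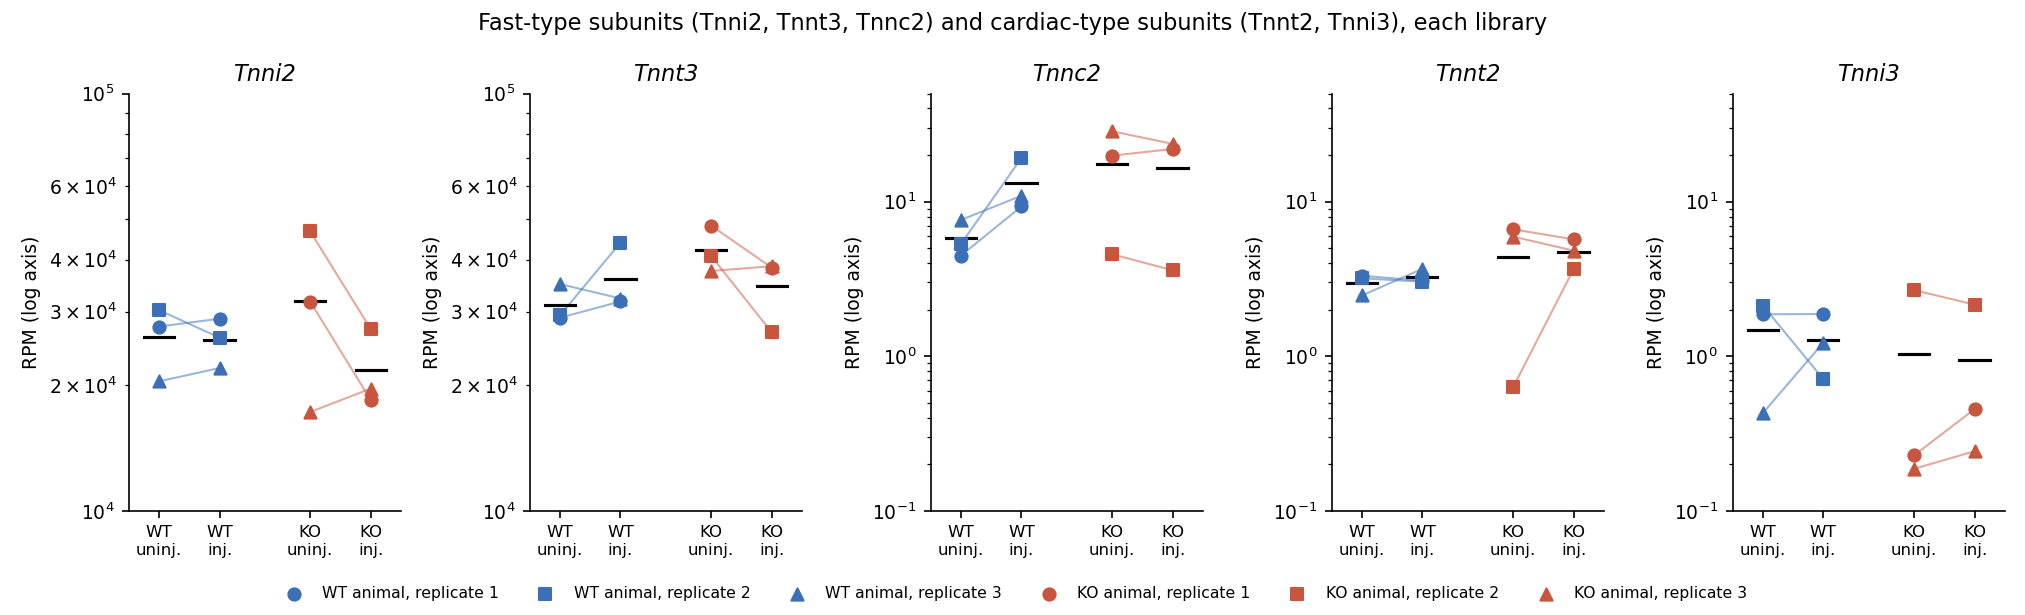
RPM (log axis) of the fast-type subunits Tnni2, Tnnt3 and Tnnc2 and the cardiac-type subunits Tnnt2 and Tnni3 in each of the 12 libraries, WT blue and KO red, with lines joining the libraries of an animal and black bars at group means. Axes differ between the first 2 panels (17248 RPM and above) and the other 3 (28.5 RPM and below), and KO animal 2 (red squares) is lowest among KO for Tnnc2 and Tnnt2 and highest for Tnni3.

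**Figure D4:**
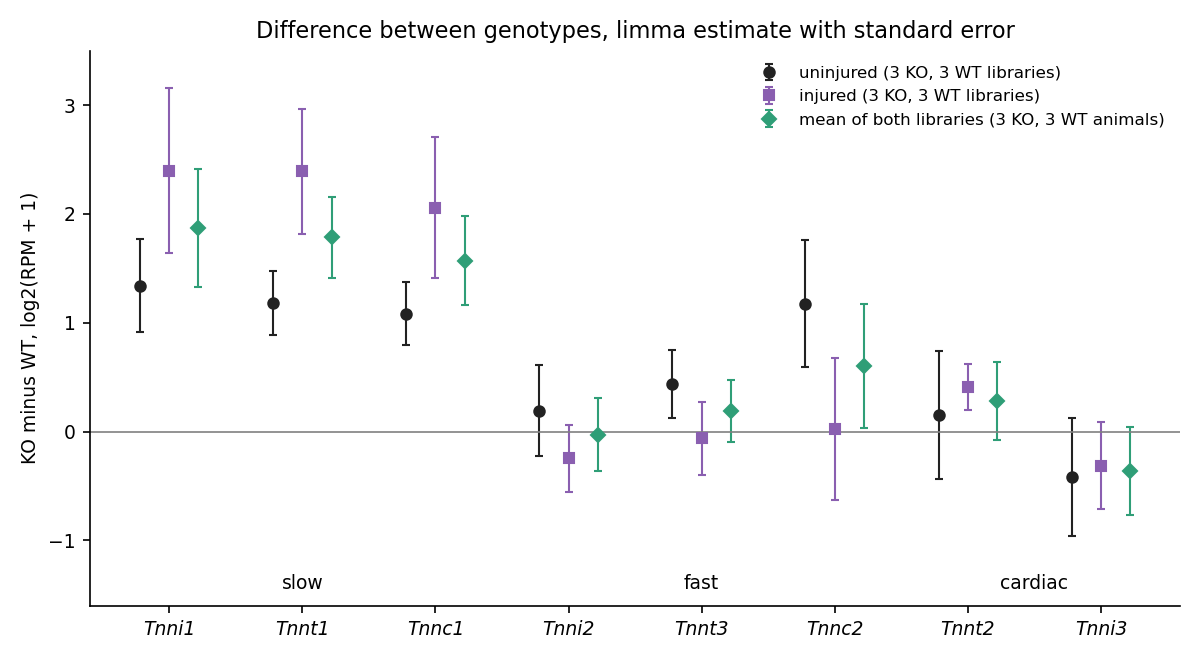
KO minus WT difference of each troponin gene on the log2(RPM + 1) scale with its limma standard error, for uninjured libraries, injured libraries and animal means (3 against 3 in each). The slow subunits lie between 1.08 and 2.40 in all 3 comparisons, and every other estimate lies between -0.42 and 1.17, the highest being uninjured Tnnc2.

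Other genes of fibre type were read from fixed lists. Of 15 slow fibre genes, 12 had higher estimates in KO in uninjured and 14 in injured muscle, with median differences of 0.27 and 1.0 against medians over all genes of -0.18 and 0.01. None passed limma in either state, with 5 and 6 at an unadjusted p under 0.05. With animal means Myh7 passed (2.32, SE 0.40, adjusted p = 0.0411), and 14 of 15 had higher estimates. Over all genes tested, estimates were higher in KO for 4584 of 12460 (uninjured), 6560 of 12625 (injured) and 5581 of 13337 (animal means). Tpm3 was higher by 1.46 (SE 0.42) and 2.35 (SE 0.66) and Sln, a regulator of the calcium pump, by 1.29 (SE 0.39) and 2.69 (SE 0.73) in uninjured and injured muscle, none passing. Of 18 fast fibre genes, 16 had higher estimates in KO in uninjured muscle (median 0.44) and 10 in injured muscle (median 0.07), with no limma call and 3 and 0 at an unadjusted p under 0.05. Actn3, the fast alpha-actinin, had the smallest unadjusted p of that list (0.98, SE 0.29, limma adjusted p = 0.189, uninjured).

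Among 17 other thin filament genes 16 were tested and none passed limma (3 and 2 at an unadjusted p under 0.05), with 11 estimates higher in uninjured and 9 in injured KO muscle. Lmod1, a leiomodin of smooth muscle, had the smallest p there (2.80, SE 0.71, limma adjusted p = 0.145, uninjured). Of 15 cardiac muscle genes only 6 were tested. Myh6, the alpha heavy chain of the heart, passed in both states, by 6.64 (SE 0.36, limma adjusted p = 0.000206) and 6.40 (SE 0.47, limma adjusted p = 0.00697). It shares long stretches with Myh7, and how shared reads were counted is not given in the sources used here. Mean values in uninjured WT and KO muscle were 1.20 and 217 RPM for Myh6 and 118 and 469 for Myh7. In injured muscle they were 0.959 and 186 RPM for Myh6 and 72.2 and 530 for Myh7. The part of shared reads in the Myh6 values was not tested. Myl4, an embryonic and atrial light chain that 2 lists hold, passed with animal means (1.06, SE 0.19, limma adjusted p = 0.0442). Embryonic and regenerating fibre genes otherwise gave no call among 9 tested of 12, and fibre type regulators none among 15 (uninjured) or 16 (injured) tested, with median differences of -0.02 in both states.

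After injury, all 3 slow subunits were lower in the injured than in the uninjured library of every WT animal, but no injury difference passed. Tnnt1 differed by -0.63, -2.09 and -0.29 on the log2(RPM + 1) scale in WT animals 1 to 3, Tnnc1 by -0.52, -2.06 and -0.60, and Tnni1 by -0.48, -1.51 and -0.07. WT animal 2 had by far the largest drop of each. A lower value in every WT animal was seen for 8.5% of genes tested. The fit of all 12 libraries, used for injury and the interaction, did not pair the libraries of an animal. Its mean WT differences were -1.01 (SE 0.47) for Tnnt1, -1.06 (SE 0.52) for Tnnc1 and -0.69 (SE 0.65) for Tnni1. Without injured WT replicate 2 they were -0.44, -0.50 and -0.15, and without injured WT replicate 3 the Tnni1 difference was -1.22. Without uninjured WT replicate 3 that of Tnni1 was -0.46. Limma called 0 of 8 troponin genes and 0% of all genes (adjusted p of 1 for each), with 172 genes but no troponin gene at an unadjusted p under 0.05, and DESeq2 and edgeR called no gene either.

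In KO muscle the slow subunits had injury differences of mixed sign. Tnnt1 differed by 0.46, 0.0053 and 0.15 in KO animals 1 to 3, Tnni1 by 1.01, -0.09 and 0.18, and Tnnc1 by 0.38, -0.81 and 0.17. The mean differences were 0.20 (SE 0.47), 0.37 (SE 0.65) and -0.08 (SE 0.52), all below their standard errors. Under upper quartile scaling the sign turned for Tnnt1 (-0.17) and Tnni1 (-0.0070), and under TMM scaling for Tnnt1 (-0.07), while the median over all genes in this comparison, 0.29, moved to -0.02 and 0.07. Relative to that median Tnnt1 stood at -0.09. Limma called 0% of all genes here, with 468 at an unadjusted p under 0.05 and no troponin gene among them.

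The difference between the injury responses, KO minus WT, was 1.21 (SE 0.67) for Tnnt1, 1.06 (SE 0.92) for Tnni1 and 0.97 (SE 0.73) for Tnnc1. With 1 library left out these ranged over 0.64 to 1.67 for Tnnt1, 0.49 to 1.79 for Tnni1 and 0.41 to 1.55 for Tnnc1. The lowest values came without injured WT replicate 2 for Tnnt1 and Tnnc1 and without injured KO replicate 1 for Tnni1. The highest came without injured WT replicate 3 for Tnnt1 and without injured KO replicate 2 for Tnni1 and Tnnc1. For the fast subunits the same difference was -1.15 (SE 0.94) for Tnnc2, -0.50 (SE 0.43) for Tnnt3 and -0.44 (SE 0.53) for Tnni2. For the cardiac-type genes it was 0.26 (SE 0.67) for Tnnt2 and 0.11 (SE 0.71) for Tnni3. No troponin gene and 0% of all genes passed limma for this interaction, with an adjusted p of 0.9999 for each troponin gene. At an unadjusted limma p under 0.05 there were 208 genes. The injury difference had one sign in every WT animal and the opposite in every KO animal for Tnnt1, as for 2.23% of all genes tested. Of the 15 slow fibre genes, all had a lower estimate after injury in WT, as had 5020 of the 13337 genes tested. In KO 12 of the 15 had a higher one, near the share over all genes (10784 of 13337). The interaction estimate was positive in 15 and in 9083 of the 13337 genes tested, with a median of 0.88 against 0.20 over all genes. The comparisons share libraries, so these counts are not independent of each other.

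Among the fast subunits, Tnnc2 differed after injury by 0.91, 1.67 and 0.47 in WT animals and by 0.14, -0.28 and -0.26 in KO animals. Its mean WT difference was 1.02 (SE 0.67) and the KO one -0.13 (SE 0.67). Over all genes tested, WT estimates were higher after injury for 8317 of 13337. Tnnt3 differed by 0.13, 0.58 and -0.12 in WT and by -0.33, -0.61 and 0.04 in KO animals. Tnni2 differed by 0.06, -0.22 and 0.11 in WT and by -0.78, -0.78 and 0.19 in KO animals. The injury differences of these genes were 0.20 (SE 0.31) and -0.02 (SE 0.38) in WT and -0.30 (SE 0.31) and -0.46 (SE 0.38) in KO, none passing. The cardiac-type gene Tnnt2 had injury differences of 0.10 (SE 0.48) in WT and 0.36 (SE 0.48) in KO. Those of Tnni3 were -0.08 (SE 0.50) in WT and 0.03 (SE 0.50) in KO, and none of these passed.

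**Figure D5:**
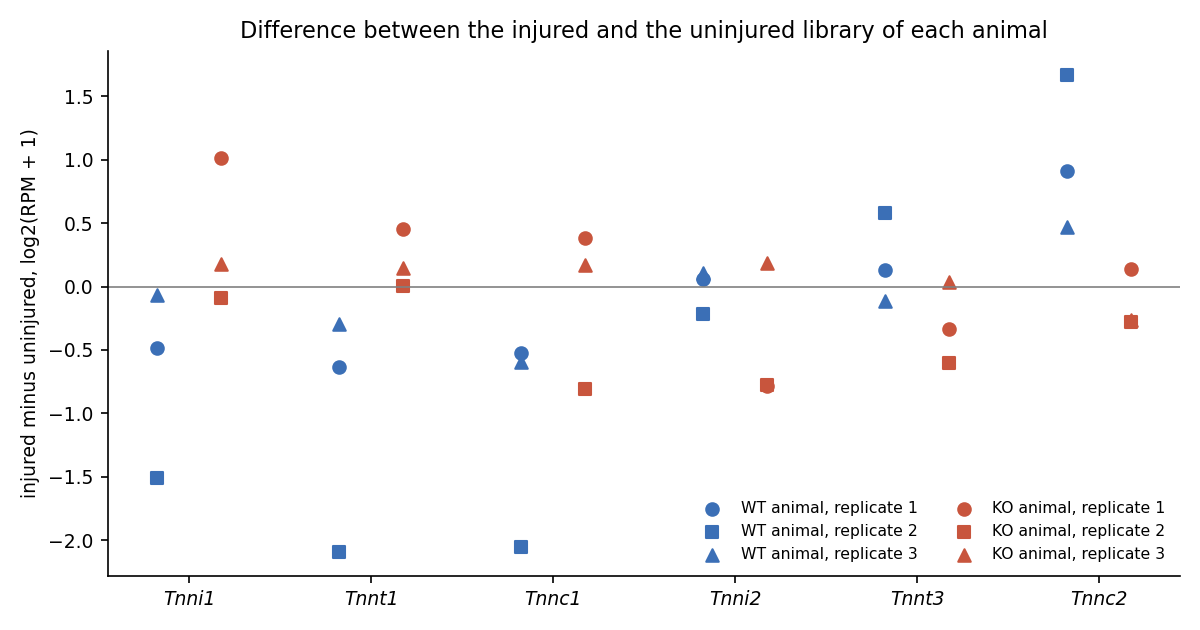
Injured minus uninjured difference on the log2(RPM + 1) scale for the slow and fast subunits in each animal (3 WT in blue, 3 KO in red, marker shape by replicate number). All WT points of the slow subunits are below 0, down to -2.09 for Tnnt1 in animal 2, while KO points of Tnnt1 lie between 0.0053 and 0.46.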

How the data were processed

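RNA was extracted with Trizol and made into libraries with the TruSeq RNA v2 kit, per the labels' protocols. The submitters' processing notes list HISAT2 2.1.0, SAMtools, featureCounts and DESeq2 with the builds mm10 and GRCm38.p5, without role or settings. The authors deposited RPM for 49585 genes in 1 table per injury state. For each gene the authors also deposited a log2 fold change (WT over KO, its sign turned here) with its p-value and q-value. The peak list was made by MACS2 2.1.0.20140616 at a q cutoff of 0.05, as its headers say. That list gives the signal (pileup at the summit), the fold enrichment as a ratio to local background, −log10 p and q, and positions, per the file headers. The notes also list Bowtie 1.1.0. The files name no build, and peaks were read against a RefSeq gene table of GRCm38.p6 on the ground that patches of GRCm38 share chromosome positions. Gene spans are from that table.

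Whole reads were recovered from RPM, since all values of a library are multiples of 1 step, and 100% of values tested were whole within 0.1 read. They were the input to DESeq2 1.42.0 and edgeR 4.0.16. The main test was limma 3.58.1 (R 4.3.3), lmFit and eBayes with a trend, on log2(RPM + 1), keeping genes that reached 1 RPM in 3 or more fitted libraries, with Benjamini-Hochberg adjustment over all of them, two-sided, at 0.05. All 8 troponin genes passed this filter in all 6 comparisons. Scripts were tested on simulated data. KO against WT was fitted on the 6 libraries of a state and on 6 animal means, injury and the interaction on all 12 libraries. Fold changes on this scale understate those of low genes. Floors cover counting error only.

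Alternatives were other pseudocounts, filters and scalings, DESeq2, edgeR, covariates, a replicate block, the authors' q-values, each library left out in turn, and other peak windows. For injury, libraries pair by animal number (correlations of deviations of the 2 libraries of an animal 0.278, -0.231 and 0.0156 in WT and 0.0240, 0.504 and 0.628 in KO). For genotype, replicate numbers are shared only as numbers. The troponin genes, the 6 gene lists and the marker lists were chosen with earlier results of these data known. All troponin genes are named in each comparison. Of each list the genes that pass are named, or else some of those with the smallest p, and for each troponin gene the 3 genes of highest r.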

Additional observations from a re-analysis of the deposited data

Results flagged for a closer look

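Tnnt1 was lower after injury in all 3 WT animals and higher in all 3 KO animals, which is what drew attention to it. The KO minus WT difference of its injury change was 1.21 on the log2(RPM + 1) scale (SE 0.67), with an unadjusted limma p of 0.0928 and an adjusted p of 0.9999. Opposite signs in every animal of either genotype were seen for 2.23% of genes tested. In KO animal 2 the change was 0.0053, and the KO mean turned to -0.17 under upper quartile scaling.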

How the results depend on the processing

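The number of troponin genes called in KO against WT depended on the method. In uninjured muscle limma called 0. Upper quartile scaling, the authors' deposited table and the replicate block each gave 3 (1.25%, 1.43% and 6.04% of all genes). TMM scaling gave 2 (0.872%) and DESeq2 gave 4 (5.33%). The other 8 of 13 settings gave 0, edgeR among them. In injured muscle DESeq2, the mitochondrial share as covariate and the authors' deposited table each gave 3 (3.39%, 1.13% and 0.893% of all genes). The other 10 of 13 gave 0. With animal means upper quartile, TMM and non-mitochondrial scaling gave 1 each (1.31%, 1.22% and 1.95% of all genes). Leaving out each library or animal in turn gave 0 to 1 calls in uninjured muscle, 0 to 3 in injured muscle and 0 to 5 with animal means, the upper ends all without KO replicate 2, where 0.261%, 19% and 19.2% of all genes were called. For injury in WT, injury in KO and the interaction, all 9 settings and 12 left-out libraries gave 0. With the replicate number as a block, 3 troponin genes were called in uninjured muscle (limma adjusted p = 0.0167 to 0.0224, with 6.04% of all genes called). The same block called 0 in injured muscle (0% of all genes) and 2 with animal means (0.72%). Between the genotypes same-numbered uninjured libraries had correlations of 0.0368, 0.256 and 0.373 and not every library correlated best with its own number, and injured ones -0.300 to -0.603. The block by animal changed no call on injury. Numbers of genes called over all settings, highest without KO replicate 2 in injured muscle and with animal means, ran from 1 to 752 (main 35) in uninjured muscle, 0 to 2343 (main 34) in injured muscle and 7 to 2517 (main 155) with animal means.

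Signs turned as follows, with Tnnt2 and Tnni3 left out for injury and the interaction, and the causes were not tested. In uninjured muscle the mitochondrial covariate gave Tnni3 0.44, Tnnt2 -0.32 and Tnnc2 -0.13, and the Malat1 covariate gave Tnni1 -0.39, Tnnc1 -0.34, Tnni3 0.16, Tnnt2 -0.33 and Tnnc2 -0.081. The authors' deposited table had Tnni3 at 0.0051. Leaving out 1 library gave -0.24 to 0.87 for Tnnt2 and -0.14 to 0.58 for Tnni2. In injured muscle Tnnc2 turned with a pseudocount of 0.1 (-0.015), non-mitochondrial scaling (-0.00042), the mitochondrial covariate (-0.12) and the Malat1 covariate (-1.25), and ranged over -0.40 to 0.81 with 1 library left out. The Malat1 covariate also gave Tnni2 0.13, Tnni3 0.28 and Tnnt2 -0.076, and Tnnt3 ranged over -0.15 to 0.11 with 1 library left out. With animal means Tnni2 was 0.12 under upper quartile and 0.090 under TMM scaling and -0.28 to 0.20 with 1 animal left out. After injury in WT, Tnni2 ranged over -0.18 to 0.10 with 1 library left out. After injury in KO, upper quartile scaling gave Tnni1 -0.0070 and Tnnt1 -0.17, and Tnnt1 was -0.072 under TMM scaling, -0.013 with DESeq2 and -0.0033 with edgeR. With 1 library left out, KO ranges were -0.19 to 1.1 for Tnni1, -0.13 to 0.57 for Tnnt1, -0.55 to 0.49 for Tnnc1 and -0.85 to 0.66 for Tnnc2.

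Of the troponin genes, 7 had a Myf6 peak in the main window, and 4 of 6 had one within 1 kb of a listed start. When only peaks of fold 10 or more counted, 1 of 8 did (Tnnt2), against 7.9% of protein-coding genes and 11.3% of those tested. That count is near the share over the genes tested. Within 50 kb 8 did, against 46.5% and 60.4%. The shallowest library, with 1880087 reads, leaves Tnni3 and Tnnt2 with 4 and 6 reads there. Slow subunits stayed higher in KO in both states in every setting run except the Malat1 covariate in uninjured muscle. Malat1 itself was lower in most KO libraries than in any WT library.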
